A study of Mus musculus with 6 samples.

Results

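Type 2 innate lymphoid cells (ILC2s) sense the alarmins IL-33, IL-25, TSLP and IL-18 through a small set of receptors, and 9 genes for these and for the related IL-1 receptors were followed in cells cultured with an antibody to GITR. The 9 genes, Il1rl1, Il1rap, Il18r1, Il18rap, Il17ra, Il17rb, Crlf2, Il1r1 and Il1r2, were taken by symbol from a table of 53278 genes. All 9 were in the table, and all but Il1r1 (8 genes) had enough counts to be tested. ILC2s had been sorted from visceral adipose tissue of 8-week-old C57BL/6 mice after 3 intraperitoneal injections of 1 µg recombinant mouse IL-33, which both groups received. The cells were then cultured for 48 h with recombinant mouse IL-2 and IL-7, each at 10 ng/mL, and with either DTA-1 (5 µg/mL), an agonistic antibody to the TNF receptor family member GITR, or its isotype control, with 3 libraries of either kind. The 48 h are those of the labels and methods, whereas the study's results text gives a shorter culture.

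ILC2s lack antigen receptors and respond to cytokines released by stressed or damaged tissue cells. IL-33 binds ST2, the product of Il1rl1, which then recruits the accessory chain encoded by Il1rap. IL-18 uses the ligand-binding chain Il18r1 and the accessory chain Il18rap, IL-25 uses Il17rb together with Il17ra, and TSLP uses Crlf2 together with the IL-7 receptor chain Il7r. Il1r1 is the signalling receptor for IL-1 and also pairs with Il1rap, while Il1r2 binds IL-1 but lacks a signalling domain and serves as a decoy. In adipose tissue, IL-33 is the best known activator of ILC2s.

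The sort gate, as the methods give it, required CD45, ST2 and CD117 (the product of Kit) on the cell surface and excluded cells with lineage markers, among them Gr-1, CD11b, CD11c and FcεRI. ST2 was thus gated on and the mice had been given its ligand, so the presence of Il1rl1 mRNA in every library is a property of the gate and not a result. The cultures as labelled held IL-2 and IL-7 and none of the alarmins, so the values describe receptor mRNA in cells that had met IL-33 in the animal. Nothing in the labels states whether the 3 libraries of a group came from separate animals or cultures, and the p values therefore measure the spread between these samples, which may be technical.

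The total count was 34557215 to 35131329 in the isotype control libraries and 30569351 to 32492849 in the DTA-1 libraries. Values below are CPM, the counts of a gene scaled to a common library size after TMM normalization, unless they are given per kilobase. All 15 ILC2 markers had counts in every library, with a summed level of 14600 to 15460 CPM in isotype control and 15640 to 20090 CPM with DTA-1. Of these markers 6 had higher and 9 lower means with DTA-1. Il5, the most abundant that was higher, averaged 5325 ± 230 CPM in isotype control and 8074 ± 2156 CPM with DTA-1 (SD, n = 3). Among markers of other cells, T cell genes summed to 42.7 to 56.3 CPM in isotype control and 48.3 to 52.4 CPM with DTA-1, and Cd8a was at 0 in all libraries. The library labelled DTA-1 replicate 1 stood apart from its group. By the chi-square of the counts per degree of freedom its distance was 9.64 to 11.3 to any isotype control library, against 27.1 and 28.2 to DTA-1 replicates 2 and 3. Between those 2 it was 11.4, and among isotype control libraries 11.4 to 17.0. Fold changes of the 9 receptor genes are therefore given with all 6 libraries and without that library, and other values are from all 6 unless stated. That library was singled out from these same counts, so p values from fits without it are descriptive only.

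With all 6 libraries, 0 of the 8 tested receptor genes were differentially expressed (edgeR's quasi-likelihood test, Benjamini-Hochberg adjusted p under 0.05 and at least 1.5-fold), where the share of all 14361 genes called was 0%. By an unadjusted p under 0.05 with a 1.5-fold change 1 of the 8 passed, the decoy receptor Il1r2, against 2.35% of all genes. DESeq2's Wald test also called none of the 8, and 25 genes in all. The median log2 fold change was 0.01 over the 8 genes and -0.01 over all genes tested, with 4 receptor genes higher and 4 lower. Without DTA-1 replicate 1 the receptor gene called was Il1r2, 1 of 9 tested, and 0.744% of all genes were called.

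**Figure D1:**
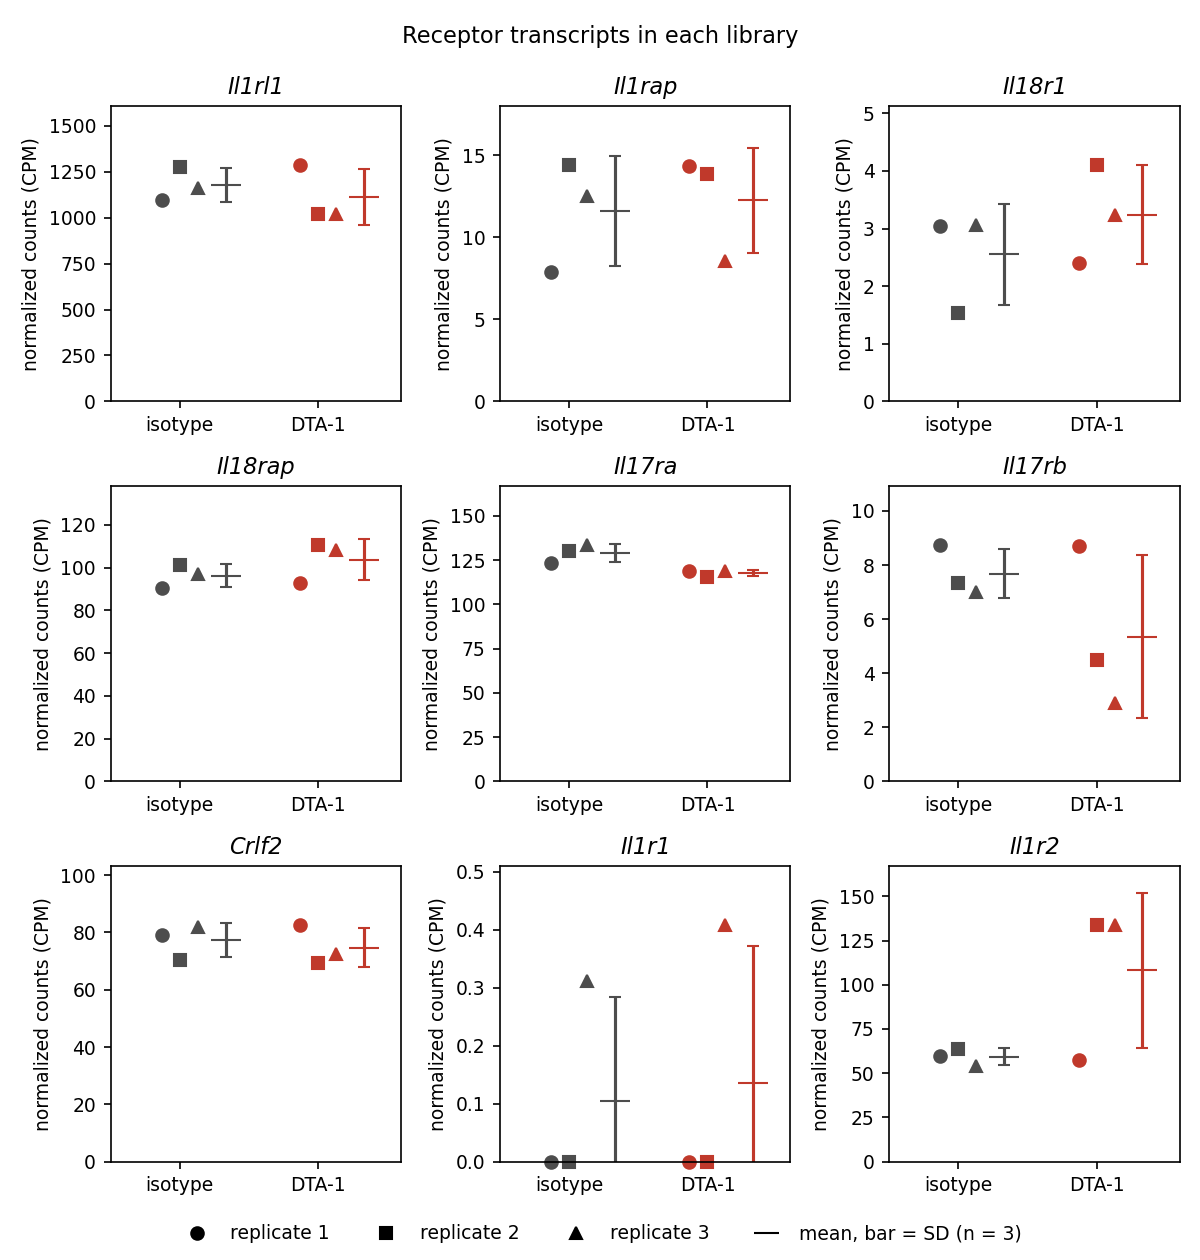
Level of each receptor gene in every library, in CPM on a linear axis with its own scale per gene. Points are libraries, with a marker shape for each replicate number, and the bars give the mean and SD of 3 libraries. Il1r2 is at 133.6 CPM in DTA-1 replicates 2 and 3 and at 54.1 to 63.7 CPM in the other 4 libraries. The groups overlap for all genes shown, Il1r2 among them, except Il17ra.

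Il1rl1, which encodes the IL-33 receptor ST2, was the most abundant of the 9 genes. Its level was 1096, 1277 and 1161 CPM in isotype control replicates 1, 2 and 3 and 1286, 1022 and 1022 CPM in DTA-1 replicates 1, 2 and 3. DTA-1 replicate 1 held the highest value of the 6 and the other DTA-1 libraries the lowest, so that the groups overlapped. The means were 1178 ± 91.8 and 1110 ± 152 CPM (SD, n = 3 each), and the log2 fold change was -0.09 (SE 0.095, 95% interval -0.29 to 0.12, adjusted p = 0.88). That interval excludes a 1.5-fold change in either direction. Leaving DTA-1 replicate 1 out gave -0.21 (95% interval -0.35 to -0.06, adjusted p = 0.195).

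The gene makes a transmembrane and a soluble form of ST2, the latter a decoy that binds IL-33 outside the cell. In the GENCODE M21 annotation of GRCm38 the gene spans chr1:40429570-40465415 on the plus strand and has 5 transcripts. The coding sequences of both forms share 985 bases (328 whole codons), up to base 40446675 of chromosome 1. They then part, and the transmembrane form runs to 567 codons and the soluble form to 337. The junction is shown because the coding sequences of both forms are the same up to it. The last 30 shared bases are in lower case, and the first 26 bases of each form's own coding sequence are in capitals.
Il1rl1 transmembrane form: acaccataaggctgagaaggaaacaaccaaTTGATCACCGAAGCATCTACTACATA
Il1rl1 soluble form: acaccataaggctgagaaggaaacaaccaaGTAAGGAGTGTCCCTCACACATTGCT
In the transmembrane form the capitals begin in a further exon, at base 40450075, and in the soluble form they continue directly, at base 40446676. Of the 6894 exonic bases of the gene, 57.5% lie past the end of the soluble form. The deposited table holds 1 value per gene, so the levels of Il1rl1 above sum both forms.

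RefSeq lists promoters at 2 separate starts of Il1rl1 (build GRCm38.p6). They are printed as the upstream DNA of the most abundant of the 9 genes, with both of its listed starts. GATA3 is a defining transcription factor of ILC2s. Capitals mark the letters AGATAA, searched on both strands, so that a match on the other strand reads TTATCT.
Il1rl1 upstream start, chr1:40429320-40429569, plus strand: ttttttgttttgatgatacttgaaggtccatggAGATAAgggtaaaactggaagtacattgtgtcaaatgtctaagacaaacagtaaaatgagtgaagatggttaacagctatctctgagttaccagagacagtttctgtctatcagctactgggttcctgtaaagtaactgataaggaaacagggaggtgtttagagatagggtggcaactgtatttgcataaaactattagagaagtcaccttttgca
Il1rl1 downstream start, chr1:40439379-40439626, plus strand: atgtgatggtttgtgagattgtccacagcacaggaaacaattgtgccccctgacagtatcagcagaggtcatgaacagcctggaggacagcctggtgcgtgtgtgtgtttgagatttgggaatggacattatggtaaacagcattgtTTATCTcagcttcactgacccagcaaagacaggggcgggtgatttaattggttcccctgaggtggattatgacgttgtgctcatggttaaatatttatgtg
Both windows hold 1 match. These were the only matches among the 12 promoter sequences of 8 receptor genes, and 9.99% of all 32851 mouse promoter windows of 250 bases hold one. The windows were also searched for a κB-like pattern, GGG and CC with any 5 bases between them, and a STAT pattern, TTCNNNGAA. Neither was found in the Il1rl1 windows, and the shares of all promoters were 45.8% and 7.02%. A match is a run of letters and not a measured binding site.

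Il1rap, the accessory chain of the IL-33 and IL-1 receptors, was scarce in comparison. Its counts were 279, 505 and 442 in isotype control replicates 1 to 3 and 444, 432 and 272 counts in the DTA-1 replicates. Each group held 1 low library and the groups overlapped. The means were 11.6 ± 3.35 CPM in isotype control and 12.2 ± 3.22 CPM with DTA-1 (SD, n = 3), with a log2 fold change of 0.08 (SE 0.25, 95% interval -0.47 to 0.63, adjusted p = 0.964). The sign turned when DTA-1 replicate 1 was left out (-0.05), and here a 1.5-fold rise was not excluded. Il1rap lies on another chromosome, at chr16:26581704-26730117, plus strand.

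In the same libraries the ratio of Il1rl1 to Il1rap, both in CPM per kilobase of exon, ran from 122 in DTA-1 replicate 2 to 229 in isotype control replicate 1. The 3 isotype control libraries averaged 176 ± 46.1 and the DTA-1 libraries 156 ± 38.5 (SD). The ratio rests on the length taken for each gene. With the longest annotated transcript in place of all exons it ran from 63.0 to 119.

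For the IL-18 receptor the order of the chains was the opposite, with the accessory chain far above the chain that binds the ligand. Il18r1, the binding chain, had 108, 54 and 108 counts in isotype control replicates 1 to 3 and 74, 128 and 103 counts in the DTA-1 replicates. At 2.55 ± 0.876 CPM in isotype control and 3.24 ± 0.853 CPM with DTA-1 (SD, n = 3) it was above the limit of 0.0854 to 0.0981 CPM that a count of 0 allows (3 counts, counting error only). The log2 fold change was 0.35 (SE 0.34, 95% interval -0.41 to 1.10, adjusted p = 0.861), an interval that does not exclude a 1.5-fold rise. Without DTA-1 replicate 1 it was 0.52 (95% interval -0.28 to 1.32, adjusted p = 0.575), without isotype control replicate 2 it was 0.08 and without DTA-1 replicate 2 it was 0.15. The log2 fold change thus ran from 0.08 to 0.52 with single libraries left out.

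Il18rap, the accessory chain, was measured far more precisely, at 90.6, 101 and 97.2 CPM in isotype control and 92.7, 110 and 108 CPM with DTA-1. DTA-1 replicates 2 and 3 were the highest of the 6 libraries, whereas replicate 1 was among the isotype control values. The means were 96.3 ± 5.26 and 104 ± 9.70 CPM (SD, n = 3), and the log2 fold change was 0.11 (SE 0.084, 95% interval -0.08 to 0.29, adjusted p = 0.814). Without DTA-1 replicate 1 it was 0.18 (95% interval 0.02 to 0.35, adjusted p = 0.308). A change as large as 1.5-fold lay outside the interval in both fits. Il18rap exceeded Il18r1 in every library, by 19.2 to 46.8 times in CPM per kilobase, and the highest ratio was that of isotype control replicate 2, where Il18r1 had its fewest counts.

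The genes for both IL-18 receptor chains follow Il1rl1 directly on chromosome 1. Il18r1 (chr1:40465552-40500854) begins 136 bases after the last base of Il1rl1, and Il18rap (chr1:40515362-40551705) follows 14507 bases after Il18r1, all on the plus strand. The stretch between Il1rl1 and Il18r1 is shown because it is the whole of the DNA between a gene at 1178 CPM and one at 2.55 CPM in isotype control. None of the 3 motifs occurs in it, so it has no capitals.
Il1rl1 to Il18r1, chr1:40465416-40465551, plus strand: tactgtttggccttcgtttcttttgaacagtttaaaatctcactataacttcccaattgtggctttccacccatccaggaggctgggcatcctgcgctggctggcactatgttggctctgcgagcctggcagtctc

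Both IL-25 receptor chains had lower means with DTA-1, and neither passed the threshold. Il17ra, the chain shared by several IL-17 family receptors, was at 124, 130 and 133 CPM in isotype control and at 119, 115 and 119 CPM with DTA-1. It was the only one of the 9 genes whose groups did not overlap. Over all genes tested 11.3% did not overlap, 6.03% with the lower values in DTA-1. The means were 129 ± 4.98 and 118 ± 1.88 CPM (SD, n = 3), a log2 fold change of -0.13 (SE 0.064, 95% interval -0.27 to 0.01, adjusted p = 0.709). DTA-1 replicate 1 was here close to the other DTA-1 libraries, and without it the log2 fold change was -0.14 (95% interval -0.29 to 0.01, adjusted p = 0.403).

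Il17rb, the chain that binds IL-25, was at 8.73, 7.33 and 7.00 CPM in isotype control and at 8.70, 4.48 and 2.89 CPM with DTA-1. DTA-1 replicates 2 and 3 were below all isotype control libraries, and replicate 1 was level with the highest of them. The spread of the DTA-1 libraries was 56.1% of their mean, against 12% in isotype control. With means of 7.69 ± 0.920 and 5.36 ± 3.00 CPM (SD, n = 3), the log2 fold change was -0.52 (SE 0.33, 95% interval -1.26 to 0.21, adjusted p = 0.764). Without DTA-1 replicate 1 it was -1.06 (95% interval -1.64 to -0.48, adjusted p = 0.0874), and without DTA-1 replicate 3 it was -0.22, so its size depended on single libraries. It did not pass the threshold in any fit.

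Without DTA-1 replicate 1, the groups did not overlap for 31.2% of all genes. Among the receptor genes these were Il1rl1, Il17ra and Il17rb, all lower with DTA-1, and Il18r1, Il18rap and Il1r2, all higher, whereas Il1rap, Crlf2 and Il1r1 overlapped.

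The position of Il17rb may bear on its counts. The gene (chr14:29996135-30008896, minus strand) shares 141 exonic bases, 3.8% of its exons, with Actr8 on the other strand, which had 1306 to 1667 counts. Strand use in the counting was not given in the sources used here, and the Il17rb values are uncertain to that extent.

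Per kilobase, Il17ra exceeded Il17rb by 6.05, 7.59 and 8.15 times in isotype control and by 5.84, 11.0 and 17.6 times with DTA-1. The ratio was highest in DTA-1 replicates 2 and 3 and lowest in DTA-1 replicate 1. It averaged 7.26 ± 1.09 in isotype control and 11.5 ± 5.89 with DTA-1 (SD, n = 3), and the groups overlapped.

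Crlf2, the TSLP-binding chain, varied little. It was at 79.3, 70.5 and 82.1 CPM in isotype control and at 82.5, 69.2 and 72.5 CPM with DTA-1, with the lowest and the highest of the 6 values both in DTA-1. The means were 77.3 ± 6.01 and 74.7 ± 6.91 CPM (SD, n = 3). The log2 fold change was -0.05 (SE 0.092, 95% interval -0.25 to 0.15, adjusted p = 0.941) and -0.13 without DTA-1 replicate 1 (adjusted p = 0.592). A 1.5-fold change was outside the interval with all 6 libraries. Its partner Il7r, whose ligand IL-7 was in the medium, was at 96.2 ± 11.7 CPM in isotype control and 94.4 ± 2.30 CPM with DTA-1 (SD, n = 3, log2 fold change -0.03, 95% interval -0.23 to 0.17). The per-kilobase ratio of Crlf2 to Il7r was 2.04 to 2.93 over the 6 libraries.

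Of the IL-1 receptors, the decoy was well expressed and the signalling receptor was near the limit of detection. Il1r1, the signalling receptor, had 0, 0 and 11 counts in isotype control replicates 1 to 3 and 0, 0 and 13 counts in DTA-1 replicates 1 to 3. It was thus at or under the limit of 3 counts in 4 of 6 libraries and was not tested with all 6, and no fold change is given. Il1r2, the decoy receptor, was at 59.9, 63.7 and 54.1 CPM in isotype control and at 57.5, 134 and 134 CPM with DTA-1. DTA-1 replicates 2 and 3 were above every other library, and DTA-1 replicate 1 was among the isotype control values, so the groups overlapped.

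Il1r2 averaged 59.2 ± 4.84 CPM in isotype control and 108 ± 43.9 CPM with DTA-1 (SD, n = 3), a log2 fold change of 0.87 (SE 0.30, 95% interval 0.17 to 1.57). It did not pass the threshold with all 6 libraries (unadjusted p = 0.0209, adjusted p = 0.647). Leaving out DTA-1 replicate 1 gave 1.17 (SE 0.084, 95% interval 0.99 to 1.36, adjusted p = 0.000115) and Il1r2 was called, beside 0.583% of all genes called with higher values in DTA-1. Leaving out DTA-1 replicate 2 or 3 instead gave 0.70 and 0.69, with no call. The call therefore depends on whether the library labelled DTA-1 replicate 1 is counted.

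**Figure D2:**
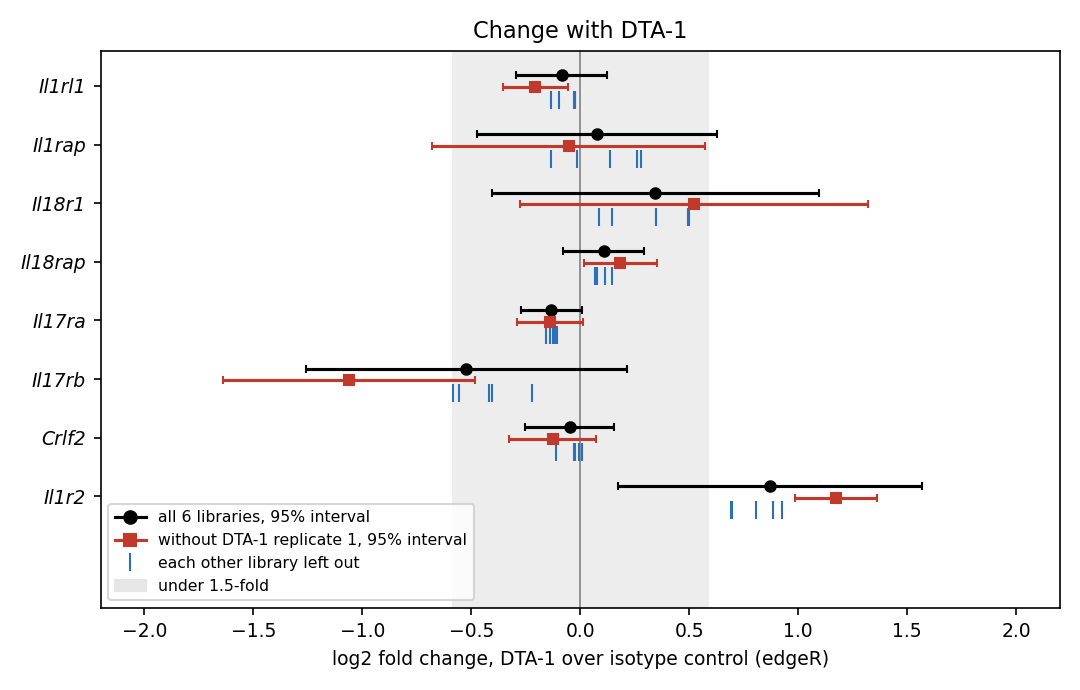
Log2 fold change of DTA-1 over isotype control for the 8 tested receptor genes, from edgeR. Black points and bars give the estimate and 95% interval with all 6 libraries, red squares the same without DTA-1 replicate 1, blue ticks the estimates with each other library left out, and the grey band changes under 1.5-fold. Il1r2 moves from 0.87 to 1.17 and Il17rb from -0.52 to -1.06 without DTA-1 replicate 1, while Il1rl1, Il18rap, Il17ra and Crlf2 stay inside the band.

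Among the markers of other cells, the mast cell and basophil sum was high in the libraries in which Il1r2 was high. The summed level of 7 mast cell and basophil markers was 16.5 to 21.7 CPM in isotype control and 16.1, 44.9 and 33.1 CPM in DTA-1 replicates 1, 2 and 3, the same libraries that were high for Il1r2. Of the 7 markers 5 were tested, and 0 were called with all 6 libraries. Cpa3, a mast cell carboxypeptidase, was at 6.82, 19.4 and 12.8 CPM in DTA-1 replicates 1, 2 and 3, and Cma1, a mast cell chymase, at 3.69, 14.2 and 10.9 CPM. These 2 of the 5 tested were called without DTA-1 replicate 1 (log2 fold changes 1.33 and 1.49, adjusted p = 0.0391 and 0.0096). In that fit 0.583% of all genes were called with higher values in DTA-1. The basophil protease Mcpt8 had a log2 fold change of -0.96, Tpsb2 of 0.13 and Fcer1a of 0.59 with all 6 libraries, none of them called. Mcpt4, a connective tissue mast cell protease, was at 0 in 4 libraries. The gate excluded cells with FcεRI, Gr-1 or CD11b on their surface and required ST2 and CD117. The 7 neutrophil markers summed to at most 1.06 CPM in isotype control and 1.35 CPM with DTA-1. S100a8, S100a9 and Elane were at 0 in all libraries. What part mast cells, basophils, neutrophils or macrophages had in the Il1r2 values was not tested. Macrophage markers summed to 6.44 to 12.3 and 8.67 to 11.9 CPM, and B cell markers to 16.7 to 17.4 and 17.2 to 18.2 CPM, in isotype control and DTA-1. Fibroblast markers summed to 5.79 to 16.9 CPM in isotype control and 1.88 to 7.06 CPM with DTA-1. Endothelial markers summed to 18.4 to 24.4 and 10.6 to 18.3 CPM, of which Pecam1 is also found on leukocytes and Cdh5 was at 0. With all 6 libraries 0 fibroblast and 0 endothelial markers were called. Without DTA-1 replicate 1, 1 of 6 fibroblast and 1 of 1 endothelial markers tested were called, both lower with DTA-1, beside 0.744% of all genes. DESeq2's Wald test with all 6 libraries called 2 of 9 fibroblast markers, both lower, and 25 genes in all. Adipocyte and mesothelial markers did not exceed 0.141 CPM. In bulk RNA, fewer cells of a type and less RNA per cell cannot be told apart.

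Il1r2 lies at chr1:40074079-40125231 on the plus strand. The sequence just upstream of its RefSeq start that holds no annotated exon is shown because Il1r2 was the receptor gene whose call turned on 1 library. It holds none of the 3 motifs, while the full window of 250 bases holds 1 STAT match that runs into annotated exon.
Il1r2 upstream, chr1:40085852-40085984, plus strand: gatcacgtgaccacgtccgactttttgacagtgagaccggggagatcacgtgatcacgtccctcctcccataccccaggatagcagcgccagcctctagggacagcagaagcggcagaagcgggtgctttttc
An antisense gene over Il1r2, Gm16894, had 15 to 49 counts and shares no exonic base with it.

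Of the 9 genes, 5 stand side by side on chromosome 1 together with Il1rl2, the IL-36 receptor, and span 477.6 kb in the order Il1r2, Il1r1, Il1rl2, Il1rl1, Il18r1 and Il18rap. Neighbours in this row differed widely in level. Per kilobase in isotype control, Il1r2 was at 31.0 ± 2.54, Il1r1 at 0.0163, Il1rl1 at 171 ± 13.3, Il18r1 at 0.530 ± 0.182 and Il18rap at 14.3 ± 0.779 CPM (SD, n = 3). With DTA-1 they stood at 56.7 ± 23.0, 0.0214, 161 ± 22.1, 0.673 ± 0.177 and 15.4 ± 1.44 CPM per kilobase. Il1rl2 itself was at 6.98 ± 2.77 CPM in isotype control and 7.81 ± 1.09 CPM with DTA-1, without length scaling. Of 10 genes flanking the row, 6 were tested and 0 were called, both with all 6 libraries and without DTA-1 replicate 1.

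**Figure D3:**
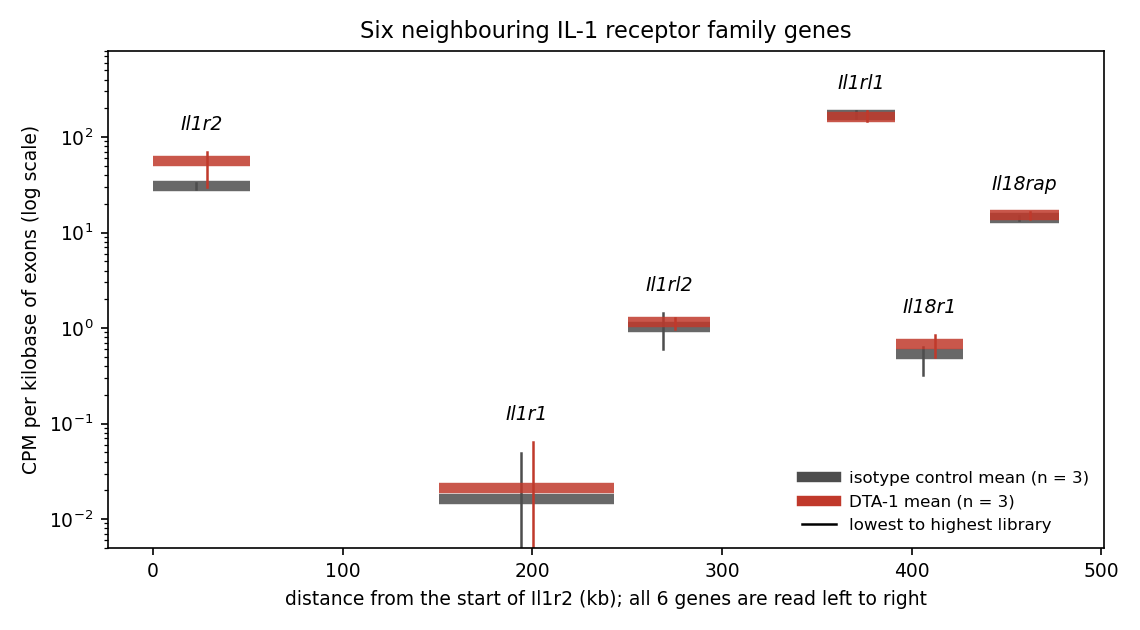
Level of the 6 genes of the IL-1 receptor row in CPM per kilobase of exon (log axis), placed by the distance of each gene from the start of Il1r2 in kb. Horizontal bars give the group means over the extent of each gene and vertical lines run from the lowest to the highest of 3 libraries, which for Il1r1 is 0 and off the axis. Il1rl1 at 171 and 161 CPM per kilobase in isotype control and DTA-1 stands next to Il18r1 at 0.530 and 0.673.

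Ordered by level per kilobase in isotype control, the genes ran Il1rl1, Crlf2, Il1r2, Il17ra, Il18rap, Il17rb, Il1rap, Il18r1 and Il1r1. Il1rl1 was 3.30 times Crlf2, and Crlf2 at 51.7 ± 4.02 was 1.67 times Il1r2 in CPM per kilobase. Il17ra at 14.9 ± 0.575 and Il18rap at 14.3 ± 0.779 overlapped and were the only neighbours in the order to do so. Below them the level dropped 6.88 times to Il17rb, at 2.07 ± 0.248, followed by Il1rap at 1.02 ± 0.295 (SD, n = 3 throughout). Of the summed CPM of the 9 genes, here without length scaling, Il1rl1 made up 75.4% in isotype control and 72.3% with DTA-1.

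With DTA-1 the order differed in the middle. Il1r2 at 56.7 ± 23.0 CPM per kilobase stood above Crlf2 at 50.0 ± 4.62, but their libraries overlapped. Il18rap at 15.4 ± 1.44 was above Il17ra at 13.6 ± 0.217 without overlap. Il17rb, Il1rap and Il18r1, at 1.45 ± 0.810, 1.08 ± 0.284 and 0.673 ± 0.177, overlapped with the next of these 3 in the order, and not with Il17ra above or Il1r1 below them. The length taken for a gene matters most for Il1rap, which was at 2.57 and 2.71 CPM per kilobase in isotype control and DTA-1 with its longest transcript. With that length Il18rap stood above Il17ra in isotype control, and Il1rap above Il17rb with DTA-1.

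**Figure D4:**
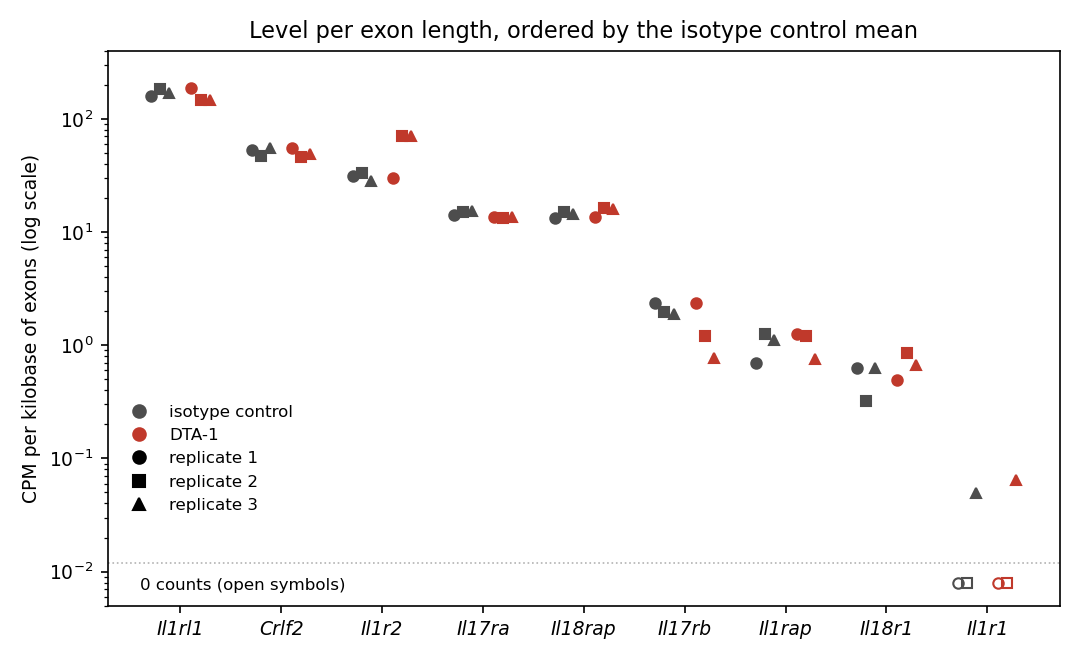
Level of the 9 receptor genes in CPM per kilobase of exon on a log axis, in the order of their isotype control means. Filled points are libraries, with a shape for each replicate number, and open symbols under the dotted line are libraries with 0 counts. Mean levels run from 171 for Il1rl1 to 0.0163 for Il1r1 in isotype control, and Il1r2 shows 2 DTA-1 libraries above all others.

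Partner and related receptors, ligands and signalling genes of the same pathways gave few differences. Of 8 partner and related receptors 5 were tested and 0 were called. Sigirr, an inhibitory member of the IL-1 receptor family, was at 136 ± 1.62 CPM in isotype control and 148 ± 18.4 CPM with DTA-1 (SD, n = 3, log2 fold change 0.13, adjusted p = 0.784). In DTA-1 its replicates were at 127, 160 and 157 CPM, with replicate 1 below every isotype control library. Il17re was at 3.44 and 2.52 CPM, and Il17rc, Il1rapl1 and Il1rapl2 were too low to test.

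Of 15 ligands and soluble antagonists only Il33 and the IL-18 binding protein Il18bp had enough counts to test, and 0 were called. Il18bp, which captures IL-18, was at 1.27, 1.54 and 3.68 CPM in isotype control and at 2.88, 2.27 and 2.57 CPM with DTA-1, with overlapping groups. For Il33 the counts were 3, 10 and 16 in isotype control, 19, 2 and 12 with DTA-1. Il25, Il17a, Il17f and Il17b were at 0 in all libraries. The 3 IL-36 genes were not in the table under their symbols.

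All 17 signalling genes were tested, among them Myd88, the adaptor used by the IL-33, IL-18 and IL-1 receptors, and 0 were called. Myd88 was at 109 ± 4.42 CPM in isotype control and 109 ± 6.27 CPM with DTA-1 (SD, n = 3, log2 fold change -0.01, 95% interval -0.17 to 0.15). An unadjusted p under 0.05 was reached by 2 of 17 signalling genes and by 7.22% of all genes. One was Traf3, an inhibitor of noncanonical NF-κB signalling that also acts downstream of the IL-17 receptors. Its level was 47.3, 46.6 and 43.2 CPM in isotype control and 46.5, 69.9 and 64.1 CPM with DTA-1, so the groups overlapped through DTA-1 replicate 1. The log2 fold change of Traf3 was 0.40 (SE 0.13, adjusted p = 0.628) with all libraries. Without that library it was 0.55 (adjusted p = 0.0154), short of 1.5-fold, where 1.7% of all genes had an adjusted p under 0.05. The other was Jak1, a kinase of the IL-7 and TSLP receptors, at 613 ± 42.4 and 692 ± 63.9 CPM (SD, n = 3, log2 fold change 0.18, adjusted p = 0.692). The groups did not overlap for 3 of the 17 genes, against 11.3% of all genes. Traf6, the ubiquitin ligase through which Myd88 signals, was at 39.5 ± 1.88 and 42.5 ± 1.01 CPM (log2 fold change 0.11, adjusted p = 0.832), and Tollip, which binds IL-1 receptor complexes, at 113 ± 4.41 and 121 ± 1.17 CPM (0.10, adjusted p = 0.764). Tab1, a partner of the kinase TAK1, had its lower values with DTA-1, at 32.4 ± 1.94 and 27.4 ± 2.79 CPM (-0.24, adjusted p = 0.698).

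The genes nearest in pattern to Il1rl1, Il1r2 and Il17rb were then found among 8717 other genes with a mean of at least 10 CPM. Nearness was the root mean square difference of log2 CPM over the 6 libraries, after subtracting each gene's mean. It is a description of libraries that share their scaling. The genes below were picked for a like pattern, so that likeness is not a separate result. For Il1r2 these were Relb (0.0738), Nlrp3 (0.081) and Nfkbia (0.0881). Relb, a subunit of NF-κB, was at 43.5, 39.9 and 35.1 CPM in isotype control and 39.4, 85.1 and 85.5 CPM with DTA-1. Nfkbia, an inhibitor of NF-κB, was at 102, 88.5 and 84.4 CPM and at 87.3, 214 and 202 CPM. Nlrp3, an inflammasome sensor, was at 11.3, 12.8 and 11.0 CPM and at 10.1, 27.3 and 24.7 CPM. All 3 were high in the libraries in which Il1r2 was high, which their selection by pattern ensured.

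For Il1rl1 the nearest were Pmm2 (0.0264), Irf8 (0.0323) and Ccr2 (0.0337). Ccr2, a chemokine receptor, was at 727, 858 and 822 CPM in isotype control and 861, 704 and 711 CPM with DTA-1, and Irf8, a transcription factor, at 30.7, 35.6 and 32.3 and at 35.1, 27.1 and 27.1 CPM. For both, as for Il1rl1, isotype control replicate 2 and DTA-1 replicate 1 held the highest values and DTA-1 replicates 2 and 3 the lowest. For Il17rb the nearest genes were farther away, Hist3h2a (0.209), Ctse (0.228) and Ly9 (0.228). Ly9, a receptor of the SLAM family, was at 38.4, 39.6 and 37.4 CPM in isotype control and 39.0, 24.3 and 20.8 CPM with DTA-1, and Ctse, a protease, at 12.2, 13.3 and 9.78 and at 13.2, 7.5 and 6.34 CPM. Both were low in the libraries in which Il17rb was low, again through the selection by pattern.

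**Figure D5:**
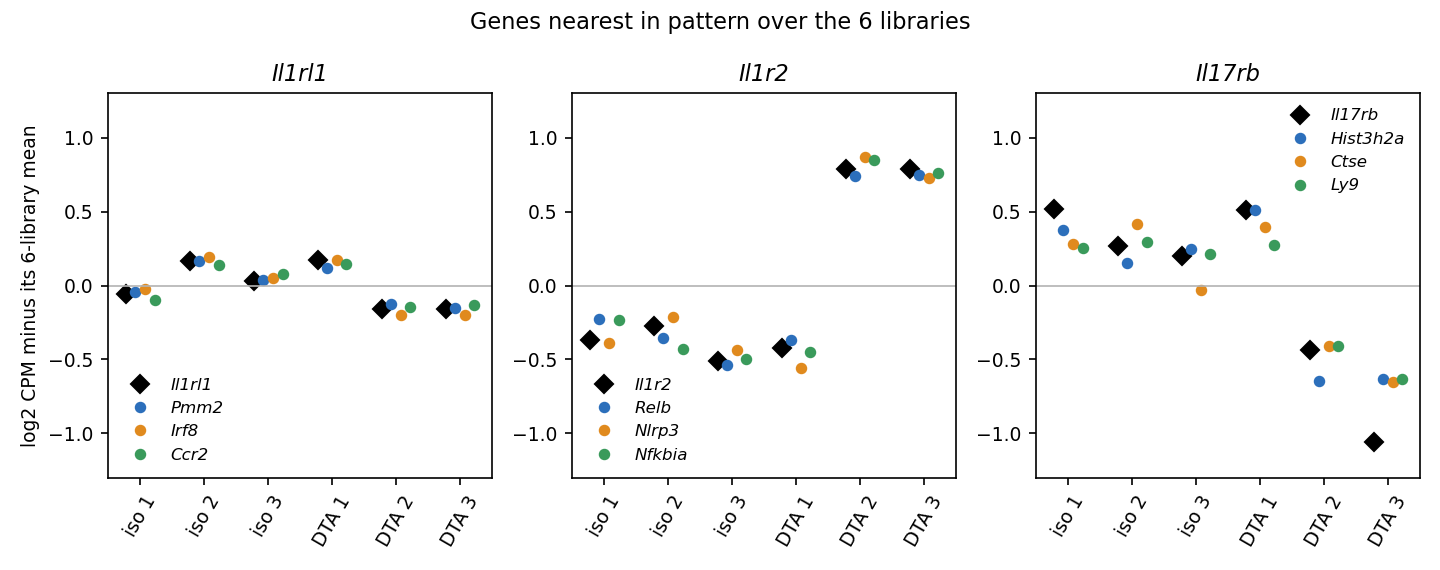
Log2 CPM minus each gene's mean over the 6 libraries, for Il1rl1, Il1r2 and Il17rb (black diamonds) and the 3 genes nearest to each in pattern (circles), with 1 position on the horizontal axis per library. The Il1r2 group stands high in DTA-1 replicates 2 and 3, the Il17rb group stands low there, and the Il1rl1 group moves over a narrower range.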

How the data were processed

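RNA-seq libraries were made by the authors from 10 ng of RNA and, per the labels and the submitters' processing notes, processed with bcl2fastq 2.17.1.14, STAR 2.5.3a and Partek on mm10. The annotation release, counting parameters and strand use are not given in the sources used here. The authors deposited expected counts, a per-gene estimate of reads without normalization, of which 77.8% were whole. All were rounded here. Totals of 30569351 to 35131329 counts set a limit of 0.0854 to 0.0981 CPM for a count of 0.

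Samples were grouped by their labelled treatment. DTA-1 and isotype control (n = 3 each) were compared with edgeR 4.0.16 in R 4.3.3 (filterByExpr by group, TMM, robust quasi-likelihood F test), with Benjamini-Hochberg adjustment over 14361 genes and a threshold of adjusted p under 0.05 and 1.5-fold. Levels per kilobase used the union of exons in GENCODE M21 (GRCm38), with which 49721 symbols matched and 48283 starts coincided. An exact permutation test of 3 against 3 cannot go below 0.1, so none was run. On simulated data 84.5% of 200 genes changed 2-fold were recovered among 14361 genes, with 14 false calls. The simulation gave every gene the same dispersion (0.0256) and held no library that stood apart from its group. The share recovered is therefore not the power to find changes in these 6 libraries.

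Alternatives were total counts or DESeq2 size factors for scaling, the DESeq2 1.42.0 Wald test, limma-trend 3.58.1 (prior count 2), no filter, a filter of 10 counts in each library, a block on the replicate number, omission of single libraries, and the longest transcript as length. Figures were drawn with matplotlib 3.10.9 in Python 3.11.15. Genes named were the 9 receptors, members of the pathway lists at 10 CPM or more or with an unadjusted p under 0.05, the 3 genes nearest in pattern to Il1rl1, Il1r2 and Il17rb, and genes overlapping a receptor gene. Pathway genes named below that level (Il17re, Il18bp, Il33 and others) and Myd88, Traf6, Tollip and Tab1, out of the signalling genes at that level, were picked after their values were seen. The receptor genes and lists were chosen with earlier results of these data known. Of the receptor genes, 8 matched a RefSeq promoter (GRCm38.p6).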

Additional observations from a re-analysis of the deposited data

How the results depend on the processing

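No receptor gene passed the threshold under total counts, DESeq2 size factors, DESeq2's Wald test, limma-trend, either filter or the replicate block. Without 1 library in turn the number of receptor genes called ranged from 0 to 1, and the 1 was Il1r2 without DTA-1 replicate 1. Over all genes the count of 0 became 25 with DESeq2's Wald test, 2 with no filter on low counts and 1 with the replicate block, and ranged from 0 to 111 with 1 library left out, where 111 was reached without DTA-1 replicate 1. The cause was not tested. No partner, ligand or signalling gene was called under any alternative. The sign of Il1rap turned without isotype control replicate 1 (-0.13), DTA-1 replicate 1 (-0.05) or DTA-1 replicate 2 (-0.02), and that of Crlf2 without DTA-1 replicate 2 (0.0089), all log2 fold changes with no call. With 1 library left out these ranged from -0.13 to 0.28 for Il1rap and from -0.13 to 0.0089 for Crlf2. The adjusted p of Il1r2 ran from 0.000115 to 0.999 over its alternatives and that of Il17rb from 0.0874 to 0.999. Deviations of same-numbered libraries from their group means correlated at -0.0069, -0.00285 and 0.0152. With 3 libraries a group, these values cannot tell whether equal replicate numbers mark pairs. With the replicate block the log2 fold change was 0.78 for Il1r2 (adjusted p = 0.605) and -0.65 for Il17rb (adjusted p = 0.672). Il1r1, which had counts in 1 library of each group, did not pass the filter on low counts with all 6 libraries. The intervals from 3 libraries a group do not exclude 1.5-fold changes of Il1rap, Il18r1, Il17rb or Il1r2.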
